A study of Homo sapiens with 4 samples.

Results

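The genes described here encode the coats, cargo receptors, tethers and SNAREs that move proteins between the endoplasmic reticulum (ER) and the Golgi apparatus. They were taken as 38 named genes, and a gene was measured where a probe set carried its name alone. Of these, 36 were measured, out of 18417 genes on the arrays. They comprised 13 genes of the COPII coat, 12 of the COPI coat and its ARF GTPases, 10 cargo receptors and the SNARE SEC22B. No probe set named the tether USO1 or the KDEL receptor KDELR2 alone, and both were not analysed here.

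The human fibrosarcoma line HT1080 was incubated for 36 h, either at 21% oxygen as the control or at 1% oxygen as hypoxia. RNA was taken from whole cells (total RNA) and from a biochemically isolated ER fraction (ER-RNA), and hybridised to 4 Affymetrix Human Gene 1.0 ST arrays. By the methods, cells used for fractions such as the ER first received the drug cycloheximide, and no such step is stated for total RNA. Any part of this step in differences between the fractions was not tested. The RNA on every array was a pool of 5 experiments, which leaves 1 array per condition and fraction. All cells of both conditions were in low-serum medium before and during the incubation. The line is a single tumour line, and a pool gives no spread between its experiments.

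COPII-coated vesicles leave the ER with newly made secretory and membrane proteins, and COPI-coated vesicles carry escaped ER proteins and recycled receptors back from the Golgi. In both cases a small GTPase (SAR1 for COPII, ARF for COPI) is loaded with GTP on the membrane and recruits the coat subunits. Transmembrane receptors such as the KDEL receptors, the p24 (TMED) family and the lectin LMAN1 link cargo to the coats. Fibroblast-like cells depend on this route for secretion of collagen and other matrix proteins.

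Most of these genes had slightly lower values in hypoxia, and few passed the thresholds of the methods. SAR1B, a GTPase that starts COPII assembly, fell to a fold change of 0.425 in total RNA, and to 0.422 in ER-RNA. LMAN2, a lectin receptor of the early secretory route, fell to 0.600 in total RNA. No gene of the set rose by those thresholds. With no replicates, no difference below has an error or a test, and precision is limited by how few arrays there are.

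Values are log2 signals, and the log2 difference is the hypoxia value minus the control value, which is the log2 of the fold change. A gene counted as expressed if its signal exceeded the 50% quantile of the control or the hypoxia array. Calls required a fold change beyond 1.4 in either direction and a z-score beyond 3. The z-score is the log2 difference over the SD of the pair's values fitted at that signal, not over an SD of log2 differences. In total RNA, 2 of 36 members (5.56%) were called lower, against 7.45% of the 11530 expressed genes, and 0 were called higher, against 2.32%. In ER-RNA, 1 of 35 expressed members (2.86%) was called lower, against 8.25% of 11876 genes, and 0 were called higher, against 1.12%. After quantile or loess normalization, SEC24A was also called higher in each fraction. With a scaled MAD in place of the SD, 0 members were called lower in total RNA, while LMAN2 was lost at a fold of 2, and SAR1B in ER-RNA under a 75% quantile filter. The share of members called was thus near or below that of all genes.

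By fold change alone, 7 members (19.4%) lay below and 2 (5.56%) above the threshold in total RNA, against 18.6% and 6.20% of expressed genes. In ER-RNA, 10 of 35 (28.6%) lay below and 1 (2.86%) above, against 21.4% and 6.53%. The direction was more uniform than these counts. In each fraction, 30 of 36 members had a lower value in hypoxia, while 55.7% of expressed genes were lower in total RNA and 52.5% in ER-RNA. Over the members the log2 difference had a median of -0.26 (total RNA) and -0.27 (ER-RNA), against 0.03 and 0.06 over all genes, or -0.06 and -0.04 over expressed genes.

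Signal level moved with this direction. Among genes above the 75% quantile of either array of a pair, 64.2% (total RNA) and 63.3% (ER-RNA) were lower in hypoxia. Of the members above it, 29 of 34 (85.3%) were lower in total RNA and 26 of 32 (81.2%) in ER-RNA. Their median log2 differences were -0.26 and -0.31, against -0.16 and -0.19 for all such genes. After quantile or loess normalization of each pair, 27 of 36 members were lower in each fraction, and their median was -0.16 in total RNA under both, and -0.17 and -0.11 in ER-RNA. The medians of expressed genes were then -0.011 and -0.005 in total RNA, and 0.020 and 0.030 in ER-RNA. The part that signal level plays in the direction was not tested. In bulk RNA, fewer cells that express a gene and less RNA per cell cannot be told apart.

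**Figure D1:**
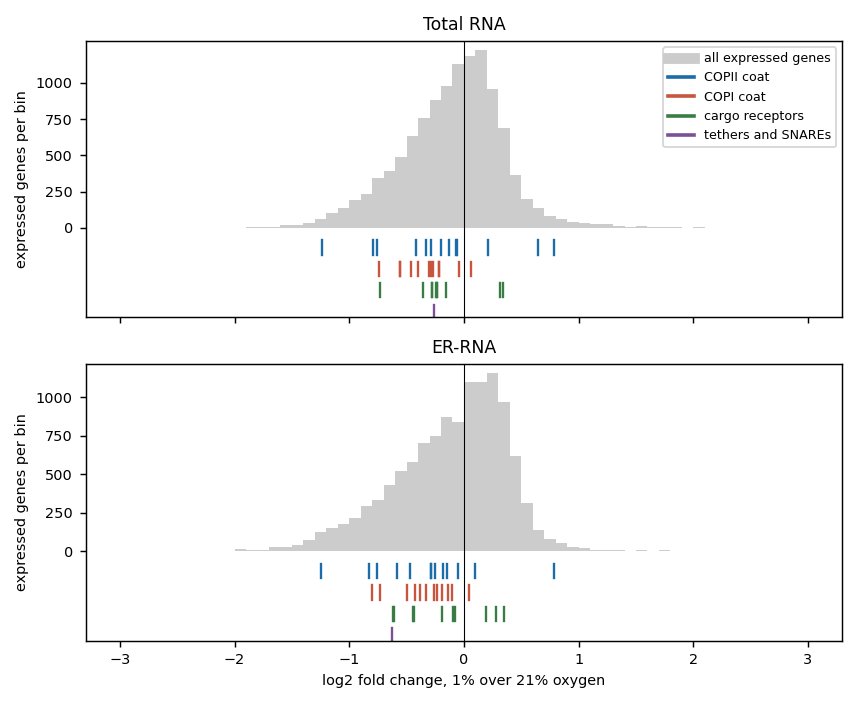
Histograms of the log2 fold change, 1% over 21% oxygen, of all expressed genes in total RNA (upper) and ER-RNA (lower), with the number of genes per bin on the vertical axis. Coloured ticks below each histogram mark the single members by role. Most ticks lie left of 0 inside the body of the histogram, with SAR1B at the far left and SEC24A at the far right.

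Labels were checked against marker genes on the same arrays. Of 10 mesenchymal markers, 8 were expressed in total RNA, while EPCAM and CDH1 among the epithelial markers, PTPRC among the leukocyte markers and all 4 endothelial markers were not. KRT8, KRT18 and KRT19 of 7 epithelial markers, and CD68 of 5 leukocyte markers, were expressed in total RNA. In ER-RNA, 9 of 10 mesenchymal and 3 of 7 epithelial markers were expressed. So were 2 of 5 leukocyte markers (CD68 and CD14) and 1 of 4 endothelial markers (PECAM1). Of the hypoxia-inducible genes EGLN3, ALDOC, BNIP3, NDRG1 and PDK1, 5 of 5 rose in each fraction. The array medians were 7.41 and 7.49 for control and hypoxia in total RNA, and 6.25 and 6.34 in ER-RNA.

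The promoters of many coat genes share a short motif, and the sites in the COPI genes and in SEC23A and SEC24A are shown because the values of these genes differ widely. The motif is TGACGTG, the core of the unfolded protein response element. It was searched on both strands, from 250 bases before to 50 bases after the start site, in RefSeq sequences of GRCh38.p14. Of 38 members, 33 had a promoter sequence. Each line below gives the motif in capitals with 4 bases on either side, read on the strand that spells TGACGTG.
ARF1, chr1:228082688-228082702, plus-strand gene, site on the same strand: gcgcTGACGTGgccg
COPA, chr1:160343235-160343249, minus-strand gene, site on the same strand: tcgcTGACGTGgagg
COPB1, chr11:14499848-14499862, minus-strand gene, site on the opposite strand: tggcTGACGTGgaag
COPB2, chr3:139389832-139389846, minus-strand gene, site on the opposite strand: gccgTGACGTGgtgc
COPB2, chr3:139389639-139389653, minus-strand gene, site on the opposite strand: tgacTGACGTGgaac
COPE, chr19:18919381-18919395, minus-strand gene, site on the same strand: cggcTGACGTGtctt
GBF1, chr10:102245534-102245548, plus-strand gene, site on the opposite strand: tcacTGACGTGgtaa
SEC23A, chr14:39103229-39103243, minus-strand gene, site on the same strand: ctctTGACGTGgcag
SEC24A, chr5:134648602-134648616, plus-strand gene, site on the same strand: tcggTGACGTGgcgg

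TGACGTG was present in 11 of the 33 promoters (33.3%), against 2.00% of all 27303 promoters and 2.61% of the 9206 promoters of genes expressed in total RNA. By role, it was found for 6 of 11 COPI genes (54.5%), 4 of 12 COPII genes (33.3%) and 1 of 9 cargo receptors (11.1%). SEC13, SEC16A and KDELR3 held the remaining sites. The sites of COPE and SEC23A spanned the start site of their window. The windows of GBF1 and SEC24A lie at start sites 14889 and 403 bases inside the annotated gene, while the windows of the other genes with the motif lie at its outer start. Members with the motif had median log2 differences of -0.13 (total RNA) and -0.14 (ER-RNA), and 8 of 11 were lower in hypoxia in each. Members without it had medians of -0.28 and -0.34, and 19 of 22 were lower in each. In total RNA, members with the motif ran from -0.74 to 0.79, and members without it from -1.23 to 0.65. In ER-RNA these ranges were -0.80 to 0.79 and -1.24 to 0.35. Expressed genes with the motif had medians of -0.06 and -0.09, and 130 of 240 and 131 of 234 were lower. For expressed genes without it the medians were -0.08 and -0.07, and 5176 of 8966 and 5114 of 9230 were lower. Members with the motif included SEC24A, the member with the highest log2 difference, and COPE and COPB2, which were among the lower ones. A match is a description of these letters only.

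The longer element ERSE, which is CCAAT and CCACG separated by 9 bases, was found in 0 of the 33 windows and in 22 of all promoters. ERSE-II, which is ATTGG and CCACG separated by 1 base, was found in 0 of 33 and in 15 of all promoters. The hypoxia response core, ACGTG or GCGTG, was present in 29 of 33 members (87.9%), against 48.4% of all promoters and 63.2% of those of expressed genes. It overlaps TGACGTG, which contains ACGTG.

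**Figure D2:**
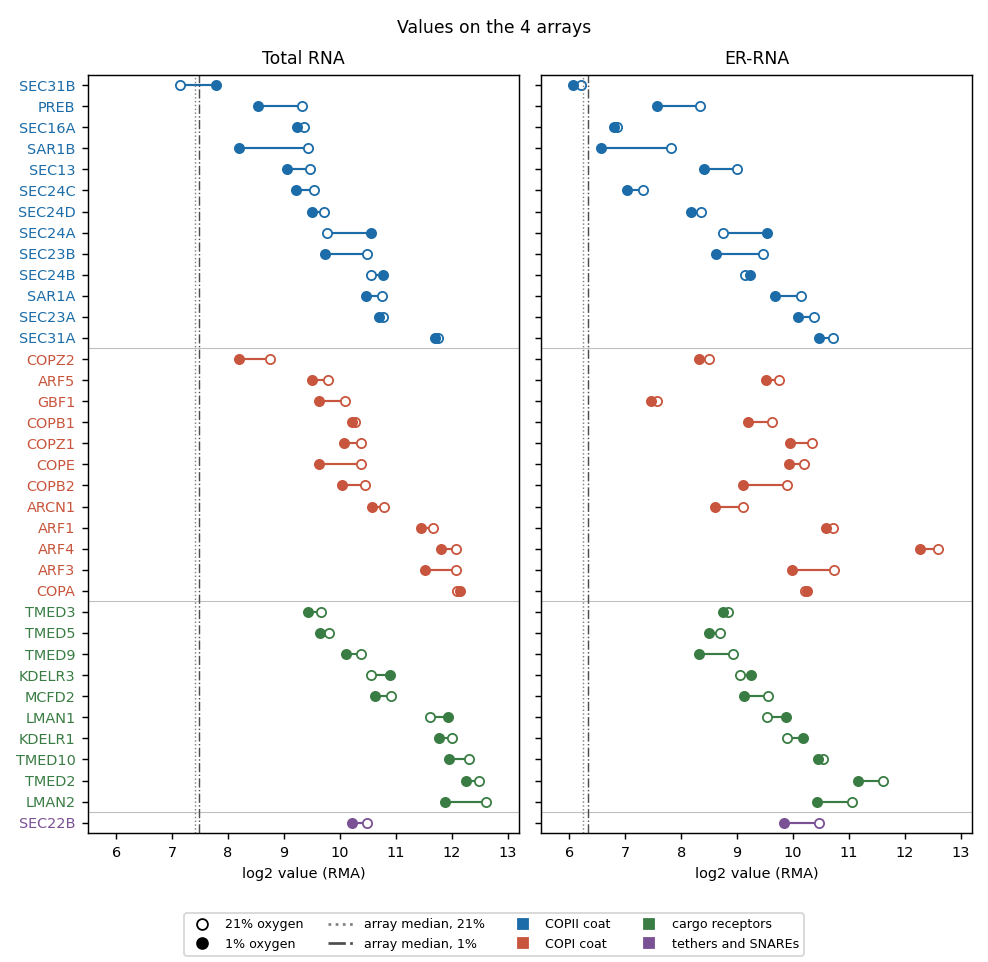
Log2 values of the 36 measured genes in total RNA (left) and ER-RNA (right), with open circles for 21% and filled circles for 1% oxygen, and vertical lines at the array medians. Filled circles lie left of open ones for 30 of 36 genes in each fraction, and only SEC31B falls below an array median.

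COPII assembly starts when PREB, the exchange factor in the ER membrane, loads a SAR1 GTPase with GTP. The log2 value of SAR1B was 9.43 in control and 8.19 in hypoxia in total RNA, and 7.82 and 6.58 in ER-RNA. SAR1B was lower in hypoxia in both fractions, with log2 differences of -1.23 and -1.24. These stood at percentiles 1.12 and 2.43 of the fold changes of all expressed genes. The close relative SAR1A measured 10.75 and 10.46 in total RNA, and 10.14 and 9.67 in ER-RNA. The log2 differences of SAR1A were -0.29 and -0.47, neither of which reached the fold threshold. PREB measured 9.33 and 8.53 in total RNA, and 8.33 and 7.57 in ER-RNA. Its log2 differences of -0.80 and -0.76 passed the fold threshold, with z-scores of -2.98 and -2.64 that missed the limit. Median centring, no expression filter, or an SD fitted on probe sets naming 1 gene brought PREB past it in total RNA.

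The inner COPII coat consists of SEC23, which activates the GTPase of SAR1, and SEC24, which binds cargo. The log2 value of SEC24A was 9.77 in control and 10.56 in hypoxia in total RNA, and 8.75 and 9.54 in ER-RNA. SEC24A was the one member past the fold threshold upwards in both fractions, with a log2 difference of 0.79 in each. Its z-scores of 2.80 and 2.44 did not reach 3. The other SEC24 genes lay closer to 0. SEC24B had log2 differences of 0.21 (total RNA) and 0.09 (ER-RNA). For SEC24C they were -0.33 and -0.28. SEC24D gave -0.20 and -0.18. The paralogs of this subunit thus did not share 1 direction.

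SEC23B measured 10.49 in control and 9.73 in hypoxia in total RNA, and 9.45 and 8.63 in ER-RNA. SEC23B thus had log2 differences of -0.76 and -0.82, with z-scores of -2.69 and -2.56. SEC23A measured 10.77 and 10.70 in total RNA, and 10.37 and 10.08 in ER-RNA. Differences of -0.07 and -0.29 on the log2 scale left it inside the fold threshold, and the first turned positive after quantile or loess normalization. In both the SAR1 and the SEC23 pair, the B gene therefore had the lower fold change in each fraction.

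The outer coat is a cage of SEC13 and SEC31, and SEC16A is the scaffold of ER exit sites. SEC13 had log2 differences of -0.41 (total RNA) and -0.59 (ER-RNA), the latter past the fold threshold. SEC31A, the main SEC31 gene of most cells, had values of -0.06 and -0.25, the first of which also turned positive. SEC16A lay nearest to 0 in ER-RNA among the COPII genes, with -0.13 and -0.06. SEC31B measured 7.14 and 7.79 in total RNA, and 6.20 and 6.06 in ER-RNA. It was below the array median in control total RNA and on both ER-RNA arrays, so it entered the total RNA counts through the hypoxia array alone. The log2 differences of SEC31B were 0.65 and -0.14.

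Across the COPII coat, 10 of 13 genes (total RNA) and 11 of 13 (ER-RNA) were lower, with median log2 differences of -0.20 and -0.28. These became -0.08 in total RNA after quantile or loess normalization, and -0.11 in ER-RNA after loess. By fold alone, 3 of them (total RNA) and 4 (ER-RNA) lay below the threshold. SAR1B was the only one called in either fraction.

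**Figure D3:**
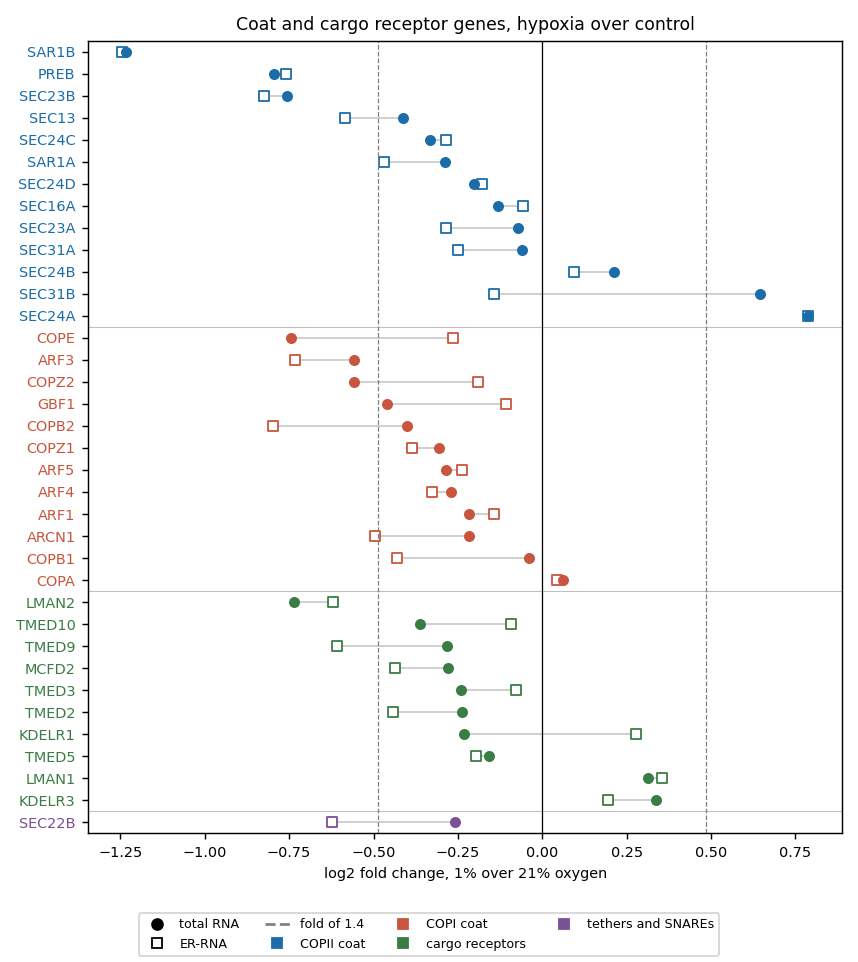
Log2 fold change, 1% over 21% oxygen, of each member in total RNA (filled circles) and ER-RNA (open squares), grouped and coloured by role, with dashed lines at a fold of 1.4. SAR1B lies lowest and SEC24A highest in both fractions, while SEC31B and KDELR1 have opposite signs in the fractions.

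COPI is a complex of coatomer subunits recruited by ARF GTPases, for which GBF1 is the exchange factor at the early Golgi. COPA, the alpha subunit, measured 12.08 in control and 12.15 in hypoxia in total RNA, and 10.21 and 10.25 in ER-RNA. It was the only COPI gene not lower in hypoxia, with log2 differences of 0.06 and 0.04 that turned negative when each array was centred on its median. COPB1, the beta subunit, had log2 differences of -0.04 and -0.43, the first of which turned positive after quantile or loess normalization. COPB2, the beta-prime subunit, measured 10.44 and 10.04 in total RNA, and 9.90 and 9.10 in ER-RNA. Its log2 differences were -0.40 and -0.80, and only the value in ER-RNA passed the fold threshold. COPE, the epsilon subunit, showed the opposite order between fractions. It measured 10.37 and 9.63 in total RNA, and 10.20 and 9.93 in ER-RNA, which gave log2 differences of -0.74 and -0.26. Subunits of 1 complex thus ranged from 0.06 to -0.74 in total RNA.

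The delta subunit ARCN1 had log2 differences of -0.22 (total RNA) and -0.50 (ER-RNA). The zeta subunits are encoded by COPZ1 and COPZ2. COPZ1 had values of -0.31 and -0.39. COPZ2 had values of -0.56 and -0.19, of which the first passed the fold threshold. COPZ2 thus had the lower log2 difference of the pair in total RNA, and COPZ1 in ER-RNA.

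Among the ARF GTPases, ARF3 measured 12.08 and 11.52 in total RNA, and 10.72 and 9.99 in ER-RNA. Its log2 differences of -0.56 and -0.73 passed the fold threshold in both fractions, with a z-score of -2.34 in each. ARF1 had log2 differences of -0.22 and -0.14. For ARF4 they were -0.27 and -0.33. ARF5 gave -0.29 and -0.24. All 4 ARF genes were thus lower in hypoxia in both fractions, except that ARF1 in ER-RNA turned positive after quantile or loess normalization. ARF3 had the lowest log2 difference of the 4 in each fraction. GBF1 measured 10.09 and 9.63 in total RNA, and 7.56 and 7.46 in ER-RNA, with log2 differences of -0.46 and -0.11.

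Of the 12 COPI genes, 11 were lower in hypoxia in each fraction, and the median log2 difference was -0.30 in both. After quantile or loess normalization it was -0.19 for total RNA, while for ER-RNA it was -0.16 and -0.15. By fold alone, 3 lay below the threshold in each fraction, and 0 were called. These were COPE, COPZ2 and ARF3 in total RNA, and COPB2, ARCN1 and ARF3 in ER-RNA.

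LMAN1 and MCFD2 form a receptor complex that carries coagulation factors and other glycoproteins out of the ER. LMAN1 measured 11.61 in control and 11.92 in hypoxia in total RNA, and 9.53 and 9.88 in ER-RNA. LMAN1 thus had log2 differences of 0.31 and 0.35. MCFD2, its soluble partner, had values of -0.28 and -0.44, so the partners differed in sign in both fractions. LMAN2, a related lectin, measured 12.60 and 11.87 in total RNA, and 11.05 and 10.42 in ER-RNA. It fell by 0.74 on the log2 scale in total RNA, where its z-score was -3.45. In ER-RNA its log2 difference was -0.62 with a z-score of -2.05, which was not called.

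The KDEL receptors return resident ER proteins from the Golgi. KDELR1 measured 12.00 in control and 11.77 in hypoxia in total RNA, and 9.89 and 10.17 in ER-RNA. Its log2 difference was -0.23 (total RNA) and 0.28 (ER-RNA). KDELR3 measured 10.55 and 10.89 in total RNA, and 9.06 and 9.25 in ER-RNA. With log2 differences of 0.34 and 0.19, it was higher in hypoxia in both fractions without reaching the fold threshold.

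The p24 proteins TMED2, TMED3, TMED5, TMED9 and TMED10 bind both coats and select cargo such as GPI-anchored proteins. All 5 had lower values in hypoxia in both fractions, except that TMED3 and TMED10 in ER-RNA turned positive after quantile or loess normalization. Their log2 differences in total RNA ran from -0.36 for TMED10 to -0.16 for TMED5. In ER-RNA they ran from -0.61 for TMED9 to -0.08 for TMED3. TMED2 had log2 differences of -0.24 and -0.44. TMED9 in ER-RNA was the only p24 value past the fold threshold.

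Over the 10 cargo receptors, 8 (total RNA) and 7 (ER-RNA) were lower in hypoxia. The median log2 difference was -0.24 (total RNA) and -0.14 (ER-RNA), and the latter became 0.03 after quantile or loess normalization. SEC22B, a SNARE for fusion between ER and Golgi membranes, measured 10.48 and 10.22 in total RNA, and 10.46 and 9.83 in ER-RNA. Its log2 differences were -0.26 and -0.62, the latter past the fold threshold.

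The response in ER-RNA was set against that in total RNA by subtracting the log2 differences. Over the 35 members expressed in both, the median of this difference was -0.04, against -0.01 over all 10851 such genes. It was above 0 for 15 of 35 members (42.9%) and for 48.5% of all genes. KDELR1, with 0.51, and COPE, with 0.48, had the highest differences, at percentiles 96.6 and 96.0. COPB2 had the lowest among members expressed in both fractions, with -0.40. The members as a set therefore did not stand away from other genes in this measure.

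ER-RNA over total RNA within each condition was expressed on the log2 scale relative to the median over all genes, because signals of the fractions are not on 1 scale. ARF4, a cytosolic GTPase, had the highest ratio of the members, with 1.63 in control and 1.55 in hypoxia. SEC22B, which is inserted into the membrane by its tail after translation, had 1.09 and 0.70. The cytosolic COPI subunits COPE and COPZ1 had 0.94 and 1.08 in control. GBF1 and SEC16A, both cytosolic, were lowest in control, with -1.41 and -1.40. The ratio thus spanned a wide range among proteins of like location.

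The 24 members with a cytosolic protein had a median ratio of 0.13 in control and 0.03 in hypoxia, and 15 and 12 of them lay above the gene median. This median turned negative when all 4 arrays were quantile normalized or when only genes above the array median on all 4 arrays were used. The 11 members with a membrane or lumenal protein had medians of -0.34 and -0.41. LMAN1 and KDELR1, both transmembrane receptors, had ratios of -0.97 and -0.99 in control. Genes for secreted proteins such as collagens and fibronectin, listed as a check of the ER fraction, had medians of -0.85 and -0.64, and only 2 and 3 of 24 lay above the gene median. ER-RNA over total RNA on these arrays was therefore not higher for messages of proteins made at the ER. For this reason it is given as a measured ratio and not as a location.

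**Figure D4:**
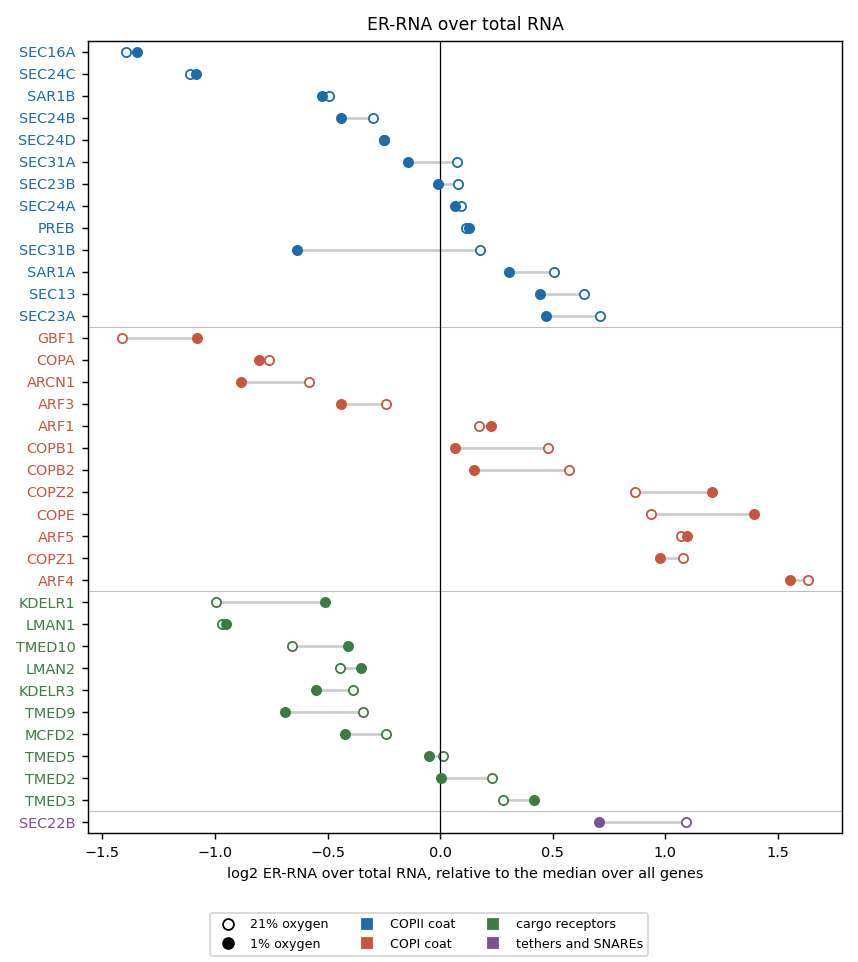
Log2 ER-RNA over total RNA of each member, relative to the median over all genes, with open circles for 21% and filled circles for 1% oxygen, coloured by role. COPI genes extend from GBF1 at -1.41 to ARF4 at 1.63 in control, while 7 of 10 cargo receptors lie below 0.

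Beyond the named genes, further genes of ER and Golgi trafficking were listed, including TRAPP complexes, tethers, golgins, SNAREs and Rab GTPases. The list also held coat subunits, coat regulators and cargo receptors of the same kinds as the members, and 63 of its genes were measured. Of these, 46 (total RNA) and 49 (ER-RNA) were lower in hypoxia, with median log2 differences of -0.23 and -0.25, which became -0.15 and -0.07 after loess normalization. In total RNA, 2 of 59 expressed genes (3.39%) were called lower, below the 7.45% of all expressed genes, and 0 higher. TRAPPC4, a subunit of the TRAPP tethers, fell by 0.96 on the log2 scale in total RNA, and by 1.35 in ER-RNA. MIA2, which helps large cargo leave ER exit sites, fell by 1.08 in total RNA. In ER-RNA, 3 of 57 expressed genes (5.26%) were called lower, below the 8.25% of all expressed genes, and 0 higher. Besides TRAPPC4, these were TRAPPC13, which fell by 1.22, and the tethering factor ZW10, which fell by 0.81. Under a 75% quantile filter or a scaled MAD, 0 of these genes were called in total RNA and 1 in ER-RNA (TRAPPC4 and TRAPPC13, respectively). MIA2 and TRAPPC13 were also lost with the mean or the lowest of their probe sets, MIA2 and ZW10 when both arrays had to pass the filter, and TRAPPC4 in total RNA and ZW10 at a fold of 2. COPG1, the gamma subunit of coatomer, had log2 differences of -0.28 and -0.25, close to the medians of the other COPI genes.

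Of the transcription factors known to act on secretory genes, 7 were measured, and 2 of the 5 expressed in total RNA were called lower, against 7.45% of all expressed genes, and 0 of 6 in ER-RNA, against 8.25%. Neither call held with a scaled MAD or at a fold of 2, and that of CREB3L2 was also lost after loess normalization. CREB3L2, which drives COPII genes in secretory cells, fell by 0.90 in total RNA while its log2 difference in ER-RNA was -0.24. ATF6, a sensor of unfolded proteins in the ER, fell by 0.97 in total RNA and stood at -0.92 in ER-RNA, where it was not called. XBP1, the factor made by IRE1-dependent splicing, had values of -0.30 and -0.21, and spliced and unspliced forms were not measured apart.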

How the data were processed

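The deposited values are log2 expression signals, which the authors obtained by RMA, and the submitters' processing notes name Partek 6.4. Whether all 4 arrays were normalized in 1 run, and the genome build of the annotation, are not given in the sources used here. The table holds 33297 probe sets, of which 19460 name 1 gene in the platform annotation, 1754 several and 12083 none. Of those naming 1 gene, 19429 matched RefSeq by gene identifier. Of several probe sets for a gene, the one with the highest mean signal was used, and every measured member had 1. How far probes tell near-identical paralogs apart was not tested.

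Hypoxia was compared with control within each fraction, over the whole table, following the thresholds in the methods (R 4.3.3, limma 3.58.1, matrixStats 1.5.0, Python 3.11.15, matplotlib 3.10.9). For the z-score, the SD over the pair was fitted on the mean by loess (span 0.75, degree 2) over probe sets above the 50% quantile on at least 1 array of the pair. This SD is a reading of the methods, which refer to earlier work for the z-score model. With 1 array per group no p-value was computed. All 38 members are named. Of other lists, called genes are named, and COPG1, XBP1, the marker genes and the hypoxia-inducible genes were chosen after their values were seen or as checks of the labels. The members and lists were chosen with earlier results of these data known. For motifs, the first listed promoter window of each gene was used. The alternatives changed the normalization, the expression filter, the SD, the fold threshold, and the choice of probe set.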

Additional observations from a re-analysis of the deposited data

Results flagged for a closer look

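SEC31B and KDELR1 had opposite signs in the fractions, each with an ER-RNA minus total RNA difference in log2 fold change among the more extreme of the members. For SEC31B the difference was -0.79, from 0.65 in total RNA and -0.14 in ER-RNA, where it was not expressed by the filter. For KDELR1 the difference was 0.51, from -0.23 in total RNA and 0.28 in ER-RNA. With 1 array per condition, neither difference was tested.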

How the results depend on the processing

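The filter, the SD and the fold threshold act on calls and cannot move a median over members, so only normalization bears on the medians of the log2 difference. Centring each array on its median gave member medians of -0.34 (total RNA) and -0.36 (ER-RNA), with 31 members lower in each. Medians of expressed genes were then -0.13 and -0.12. It called 3 members lower in total RNA. Quantile normalization of each pair gave 1 member called higher in each fraction. Medians of the log2 difference were then -0.16 (members), -0.077 (COPII) and -0.19 (COPI) in total RNA, and -0.17 (members), -0.16 (COPI) and 0.028 (cargo receptors, reversed) in ER-RNA. Loess within each pair also gave 1 called higher in each fraction. Its medians were -0.16, -0.076 and -0.19 in total RNA, and -0.11 (members), -0.11 (COPII), -0.15 (COPI) and 0.031 (cargo receptors, reversed) in ER-RNA. In that fraction it moved the median of all genes from 0.06 to 0.21, and that of expressed genes from -0.04 to 0.03. Without the expression filter, 1 member was called higher in total RNA. A MAD in place of the SD called 0 lower in total RNA, so SAR1B and LMAN2 were both lost. A fold of 2 left 1 lower in total RNA, and a 75% filter left 0 lower in ER-RNA. Fold alone gave 2 higher and 7 lower in total RNA, and 1 higher and 10 lower in ER-RNA. For ER-RNA over total RNA, quantile normalization of all 4 arrays gave medians of -0.23 and -0.32 for cytosolic members (reversed) and -0.75 and -0.91 for membrane or lumenal ones, in control and hypoxia. Using genes above the array median on all 4 arrays gave -0.012 and -0.0076 for cytosolic members (reversed) and -0.44 for membrane or lumenal ones in control. The causes of these shifts were not tested. Other choices of probe set could not alter the members. No paired analysis was possible because each group holds 1 array and the labels carry no replicate numbers, and a fit over both fractions with fraction as a block was not run. The number of arrays, with signals near the array median such as that of SEC31B, limits what these values can show.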

Other observations

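Of 24 measured genes for secreted and matrix proteins, which travel by this route, 12 had a higher value in hypoxia in total RNA, and 18 did so in ER-RNA. The log2 difference in ER-RNA had a median of 0.18 over these genes, against -0.27 for the coat and receptor genes. With each array centred on its median these medians became 0.09 and -0.36. Of the 24 secreted and matrix genes, 14 were then higher in ER-RNA and 11 in total RNA. Quantile normalization of each pair gave medians of 0.25 and -0.17, and loess gave 0.28 and -0.11. Under both, 20 of 24 were higher in ER-RNA and 14 in total RNA. Of all expressed genes, 55.7% were lower in hypoxia in total RNA, and 52.5% were so in ER-RNA, with median log2 differences of -0.06 and -0.04. Among genes above the 75% quantile of either array of a pair, these shares were 64.2% and 63.3%, with medians of -0.16 and -0.19. SPARC, a matrix protein that binds collagen, fell by 0.64 in total RNA and by 0.92 in ER-RNA on the log2 scale. PLAU, the urokinase plasminogen activator, fell by 0.90 in total RNA. Neither call in total RNA held with a scaled MAD or at a fold of 2, and SPARC in ER-RNA was also lost at a fold of 2. No gene of this list was called higher in either fraction, but COL5A1 was in total RNA after quantile or loess normalization. The difference between the lists was not tested.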
